A study of Canis lupus familiaris with 8 samples.

Results

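The 41 genes described here encode molecular chaperones and the regulators that control them, and were followed in dog kidney epithelial cells held under static stretch. They come from a list of gene names whose rule uses no measured value, but which was chosen with earlier results of these data known. By symbol, all 41 were found among the 37952 genes of the count table. The list holds 18 genes for the cytosolic and mitochondrial folding machinery, here called the cytosolic genes for short. Its other 23 genes serve the endoplasmic reticulum (ER): chaperones and folding enzymes, the machinery that removes misfolded proteins, and the sensors of the unfolded protein response. All 41 passed the filter on low counts and were tested.

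The cells were monolayers of MDCK GII, an established line of canine kidney epithelium, carrying no genetic change named for these wells. They were seeded on a collagen-coated silicone membrane in custom 6-well devices and grown overnight in medium with serum. In the stretch group (4 wells), the membrane was pulled by vacuum to an equi-biaxial strain of 18%, which was held for 2 hours. The control group (4 wells) shared the membrane, coating and medium and was not strained. The 4 wells of a group are called technical replicates in the labels, so p-values measure the spread between wells of a single line and not between independent cultures or animals.

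Chaperones bind unfolded stretches of other proteins and keep them from aggregating. In the cytosol, HSP70 and HSP90 proteins do this with partner proteins, and their genes are switched on by the heat-shock factor HSF1 when unfolded proteins build up. In the ER, where secreted and membrane proteins fold, the sensors IRE1, PERK and ATF6 detect unfolded proteins. They raise ER chaperones and the genes of ER-associated degradation, the route by which misfolded proteins leave the ER to be destroyed. Epithelial cells make many membrane and secreted proteins and keep this ER machinery at a high level.

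The wells held 27047358 to 32478887 counts, and the epithelial markers CDH1, EPCAM, KRT8 and KRT18 had at least 14199 counts in every well. The kidney cadherin CDH16 was low, with 20 to 59 counts. The summed level of 5 fibroblast markers was 1.8 to 4.23 CPM (counts scaled to the size of the library) in control wells and 2.89 to 3.91 CPM in stretch wells, with COL1A2 and COL3A1 at 0 throughout. The 4 endothelial markers summed to at most 2.32 CPM, and the 4 leukocyte markers to at most 7.31 CPM, with PTPRC and CD3E at 0. Deviations from the group means were correlated between the control and stretch wells of equal number (0.108 to 0.328 for the 4 numbers). The mean was 0.199 for equal numbers and 0.180 with numbers exchanged within 1-2 and 3-4. The best correlation was with the own number in 3 wells. These values do not clearly separate pairing by single number from a grouping of 1-2 against 3-4. Besides the unpaired fit, a paired fit was made with the replicate number as a block, and its calls depend on that choice. Positions are given as in the count table, which names no build and whose matched starts and ends equal those of the RefSeq annotation of the dog assembly UU_Cfam_GSD_1.0.

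Most ER genes had higher mean levels in stretched wells, and the changes of the cytosolic genes were centred near 0. In the unpaired fit, the median log2 change (stretch minus control) was 0.09 over the 23 ER genes and 0.0033 over the 18 cytosolic genes, against -0.0032 over all 14571 tested genes. Of the ER genes, 20 had a higher mean estimate and 3 a lower one. The same figures for the cytosolic genes were 11 and 7. In these bulk samples, more RNA per cell and a larger share of cells with the RNA cannot be told apart.

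The ER median was above 0 in each pair. The median log2 difference over the ER genes was 0.083, 0.090, 0.124 and 0.126 in pairs 1 to 4, and over the cytosolic genes 0.046, 0.0017, -0.040 and 0.024. The ER median exceeded the cytosolic median by 0.037, 0.089, 0.164 and 0.102 in the 4 pairs. These medians describe genes read in the same wells, and the difference between the compartments was not tested. Individually, 13 of the 23 ER genes were higher in 4 of 4 pairs, and 2 of the 18 cytosolic genes were, where 8.45% of all tested genes had this pattern. Lower levels in 4 of 4 pairs were seen in 1 ER gene and 0 cytosolic genes, against 7.84% of all tested genes.

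**Figure D1:**
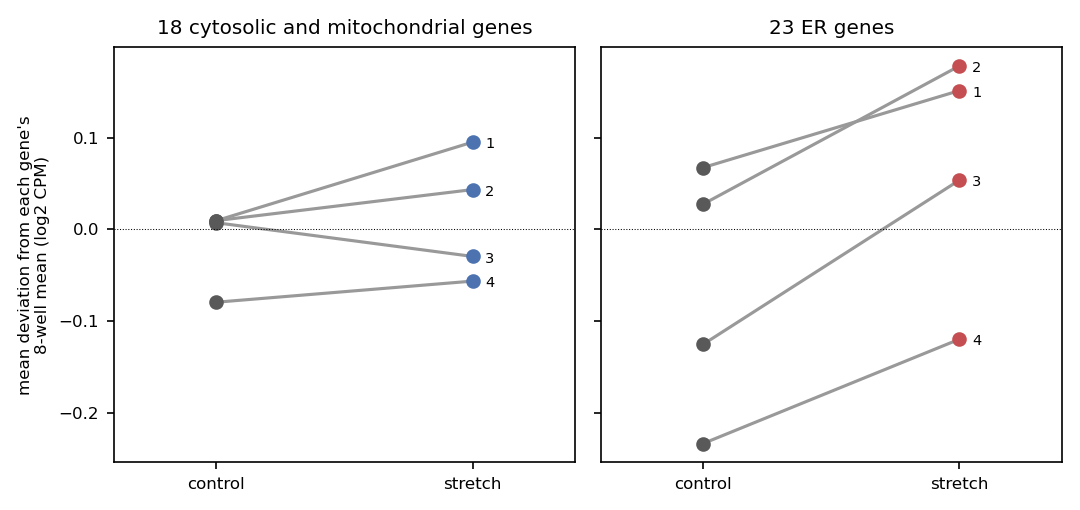
Mean deviation of each compartment's genes from their own 8-well means (log2 CPM, vertical axis) in control and stretch wells, with lines joining same-numbered wells (1 to 4). All 4 lines of the 23 ER genes climb, while the 18 cytosolic genes climb in pairs 1, 2 and 4 and descend in pair 3. The ER genes start lower in control wells 3 and 4 than in 1 and 2.

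No member reached an adjusted p under 0.05 in the unpaired fit (edgeR quasi-likelihood test with Benjamini-Hochberg adjustment over all genes), where 0% of all tested genes did. At an unadjusted p under 0.05 in that edgeR fit, 2 members were higher, SYVN1 and EDEM1, against 2.22% of all genes. DESeq2 and limma-voom without pairing also called 0 members, with 0.286% and 0% of all genes called. With the replicate block, edgeR called 4 members higher and 0 lower, against 0.528% and 0.172% of all tested genes. The 4 were MANF, EDEM1, HYOU1 and SYVN1, all of them ER genes. At an unadjusted p under 0.05 in the paired fit, 14 ER genes and 2 cytosolic genes were higher (4.99% of all genes) and 1 ER gene was lower (3.9%). In no member did every stretch well lie above every control well or every stretch well below, against 1.3% and 1.24% of all genes.

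Control wells also differed among themselves by more than the median change with stretch. In 19 of the 23 ER genes both of control wells 1 and 2 lay above both of control wells 3 and 4, and in 2 genes both lay below. The counts were 6 and 4 of the 18 cytosolic genes, and 3956 and 4046 of the 14571 tested genes. The median log2 difference of control wells 1 and 2 from control wells 3 and 4 was 0.21 for ER genes and 0.046 for cytosolic genes, against 0.0026 for all genes. Taken separately, replicates 1 and 2 gave an ER median change of 0.076 and a cytosolic one of 0.030. For replicates 3 and 4 these medians were 0.119 and -0.019. A block with only these 2 levels called 0 members, where it called 0.398% of all genes, so the 4 calls rest on the pairing by single replicate number.

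**Figure D2:**
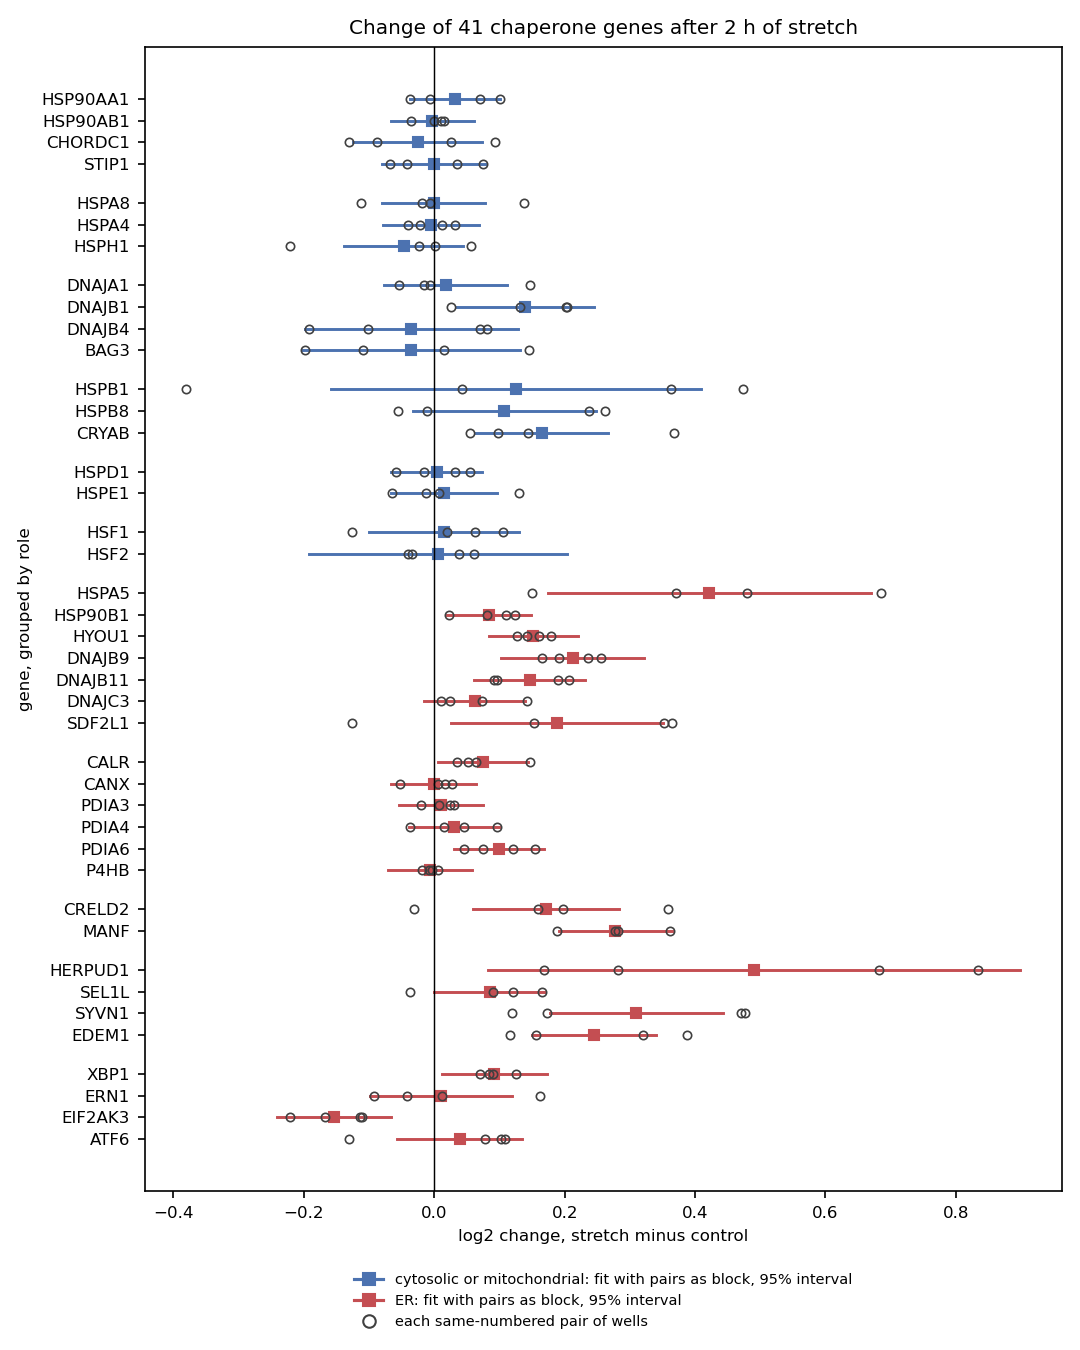
Log2 change (stretch minus control, horizontal axis) of each of the 41 genes, grouped by role. Squares and bars are the estimate with its 95% confidence interval from the fit with pairs as a block, and open circles are the 4 pairs. The ER chaperone, secreted and degradation genes lie to the right of 0, whereas the HSP90, HSP70 and heat-shock factor genes and most ER lectins and isomerases lie close to it.

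The core ER chaperones were all higher on average. HSPA5 encodes BiP, the HSP70 of the ER, which also holds the sensors inactive in unstressed cells. On chromosome 9 (57936913 to 57941842, plus strand), it stood at 2143, 1933, 1469 and 1353 CPM in control wells 1 to 4 and at 2377, 2696, 2362 and 1750 CPM in stretch wells 1 to 4. Each stretch well exceeded its own control well, by 0.15, 0.48, 0.69 and 0.37 on the log2 scale, but the lowest stretch well lay below the 2 highest control wells. The log2 change was 0.42 ± 0.09 (SE) in the paired fit, a fold of 1.34 (95% confidence interval 1.13 to 1.59), and it did not pass (edgeR, adjusted p = 0.265; 0.999 in the unpaired fit). HSPA5 is given in full because of its values, not by the naming rule. With pairs 1 to 4 left out in turn, its adjusted p in the paired edgeR fit was 0.0045, 0.658, 0.035 and 0.496.

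HYOU1, on chromosome 5 (14821311 to 14832539, plus strand), encodes GRP170, a large relative of HSP70 that exchanges nucleotide on BiP. Its level was 535, 528, 507 and 426 CPM in the control wells and 599, 576, 574 and 470 CPM in the stretch wells. The pairs differed by only 0.13 to 0.18 on the log2 scale, an even rise across wells of unlike baseline. It rose by 0.15 ± 0.03 in the paired fit (edgeR, adjusted p = 0.0337), a fold of 1.11 (95% interval 1.06 to 1.16), and had an adjusted p of 0.999 in the unpaired fit. The call was lost without pair 1, 2 or 4 (paired edgeR fit, adjusted p = 0.265, 0.123 and 0.129).

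The J-domain proteins of the ER bring unfolded clients to BiP and start its ATP cycle. DNAJB11, on chromosome 34 (19354386 to 19373856, plus strand), had 138, 129, 123 and 110 CPM in control wells and 147, 137, 142 and 125 CPM in stretch wells, a log2 change of 0.15 ± 0.04 in the paired fit (edgeR, adjusted p = 0.141; 0.999 without). DNAJB9, the protein ERdj4, had 28.7 to 38.7 CPM in control wells and 34.3 to 44.3 CPM in stretch wells, higher in 4 of 4 pairs, and its log2 change of 0.21 did not pass (paired edgeR fit, adjusted p = 0.0781). Its exons overlap LOC119876977 on the opposite strand, which held 198% of the counts of DNAJB9 and itself had a log2 change of 0.25, and the strand setting of the counting is not given in the sources used here. DNAJC3, the protein P58IPK, had the smallest log2 change of the 3, at 0.06 in the paired fit, and all of its pairs were higher.

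HSP90B1 encodes GRP94, the HSP90 of the ER, and was the most abundant member per length, with 1106 ± 136 CPM per kilobase of exon in control wells (SD, n = 4). It had 3441, 3362, 2803 and 2704 CPM in control wells and 3638, 3415, 3054 and 2919 CPM in stretch wells. Every pair was higher, by 0.022 to 0.124 on the log2 scale (paired edgeR fit, adjusted p = 0.355). SDF2L1, a partner of the ER J-domain proteins, had 48.7 to 57.6 CPM in control wells. Its stretch wells 1 to 3 had 64.1, 73.6 and 64.4 CPM, and well 4 had 44.6 CPM, below every control well.

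**Figure D3:**
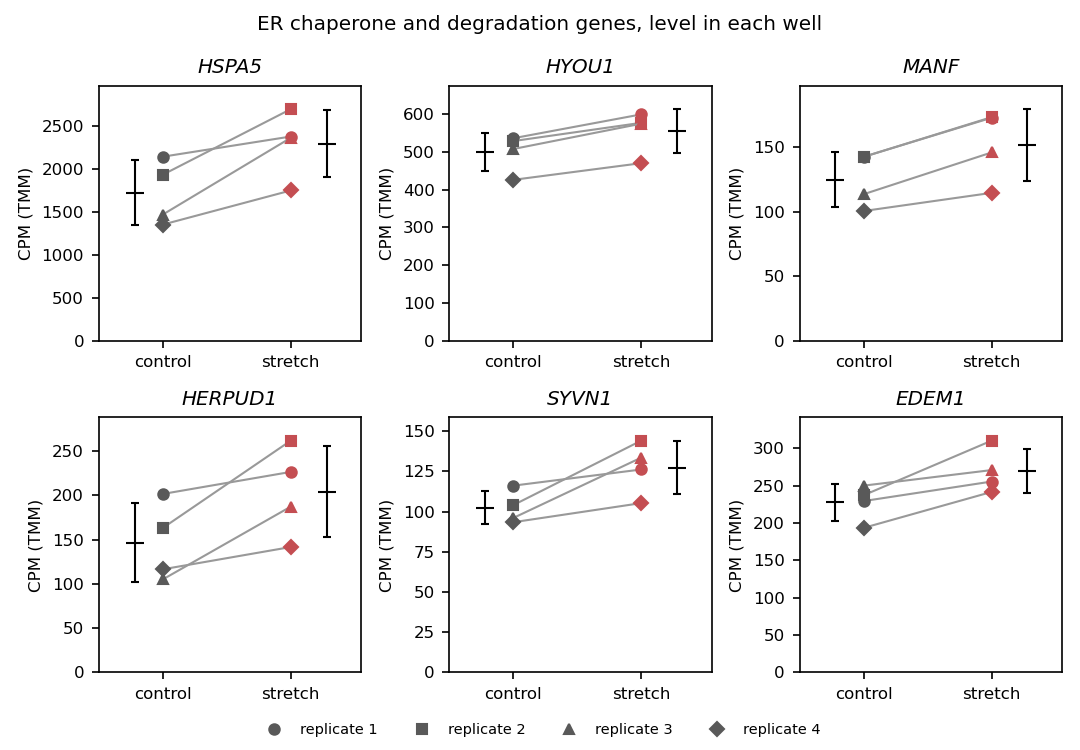
Level (TMM-scaled CPM, vertical axis from 0) of 6 ER genes in each well, with grey lines joining same-numbered wells and black bars giving the mean and SD of 4 wells per group. All 24 lines climb, from the 0.12 log2 units of EDEM1 in pair 3 to the 0.83 of HERPUD1 in the same pair. The groups overlap in all 6 genes.

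Genes of ER-associated degradation had the largest median among the roles, 0.28 in the paired fit over 4 genes. SYVN1 encodes HRD1, the membrane ubiquitin ligase through which misfolded proteins are marked, and lies on chromosome 18 (52566393 to 52574578, plus strand). Control wells had 116, 104, 96.0 and 93.4 CPM and stretch wells 126, 144, 134 and 105 CPM. Only stretch well 4 fell within the control range. The rise was 0.31 ± 0.06 in the paired fit (edgeR, adjusted p = 0.0432), a fold of 1.24 (95% interval 1.13 to 1.36), and the adjusted p in the unpaired fit was 0.953. The call was lost without pair 2 or pair 4 (edgeR, adjusted p = 0.191 and 0.0981), and with upper-quartile or library-size scaling (0.0661 and 0.0607). SYVN1 shares exonic positions with SPDYC and MRPL49 on the other strand. MRPL49, with 49.5% of the counts of SYVN1, had a log2 change of 0.0071.

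EDEM1, on chromosome 20 (12520467 to 12548815, minus strand), encodes a lectin-like protein that steers misfolded glycoproteins to this ligase. It had 229, 237, 250 and 193 CPM in control wells and 255, 310, 271 and 242 CPM in stretch wells. Stretch well 4 alone lay below the highest control well. EDEM1 rose by 0.245 ± 0.04 in the paired fit, a fold of 1.19 (95% interval 1.11 to 1.27; edgeR, adjusted p = 0.0146 in the paired fit and 0.999 without). The call was lost without pair 1, 2 or 4 (paired edgeR fit, adjusted p = 0.0763, 0.0796 and 0.139).

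HERPUD1, an ER membrane protein that helps assemble the ligase complex, had the largest estimate of all 41 genes, and it is described for that reason. Its control wells had 202, 163, 105 and 116 CPM and its stretch wells 226, 262, 187 and 142 CPM. The pairs differed by 0.17, 0.68, 0.83 and 0.28 on the log2 scale, and the groups overlapped. The log2 change in the paired fit was 0.49 ± 0.14, a fold of 1.41 with a 95% interval of 1.06 to 1.86 (edgeR, adjusted p = 0.47 in the paired fit and 0.999 without). SEL1L, the scaffold that binds HRD1, had 172 to 199 CPM in control wells and 193 to 208 CPM in stretch wells, higher in 3 of 4 pairs, with a log2 change of 0.08 (paired edgeR fit, adjusted p = 0.567).

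MANF had the smallest p of the members in the paired fit. It encodes a small ER protein that is secreted under ER stress, and lies on chromosome 20 (38602609 to 38606281, minus strand). Control wells had 143, 143, 114 and 101 CPM, and stretch wells 173, 173, 146 and 115 CPM. The 4 pairs differed by 0.28, 0.28, 0.36 and 0.19 on the log2 scale, while stretch well 4 and control wells 1 and 2 overlapped. MANF rose by 0.28 ± 0.04 in the paired fit (edgeR, adjusted p = 0.0023), a fold of 1.21 (95% interval 1.14 to 1.29), and had an adjusted p of 0.999 in the unpaired fit. Without pair 1 the adjusted p was 0.058, and without any other pair it stayed at or below 0.0103 (the paired edgeR fit). CRELD2, another secreted ER stress protein, had 103 to 151 CPM in control wells and 173, 159, 151 and 101 CPM in stretch wells 1 to 4. It was higher in 3 of 4 pairs and did not pass (log2 change 0.17; the paired edgeR fit, adjusted p = 0.216).

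The lectins and disulfide isomerases, which fold glycoproteins and form disulfide bonds, differed little between groups. Their median log2 change was 0.022 in the unpaired fit over 6 genes, and 0 of the 6 passed in either edgeR fit. CANX, the membrane lectin calnexin, averaged 1922 ± 70.6 CPM in control wells and 1921 ± 64.5 CPM in stretch wells (SD, n = 4). PDIA3 went from 1338 ± 50.2 to 1348 ± 49.0 CPM, and P4HB, the classical protein disulfide isomerase, from 1255 ± 48.8 to 1250 ± 55.7 CPM. For these 3 the 95% interval in the paired fit lay between folds of 0.952 and 1.05. PDIA4 had a log2 change of 0.030. CALR, the soluble lectin calreticulin, and PDIA6 were higher in 4 of 4 pairs, by 0.074 and 0.099 on the log2 scale in the paired fit (edgeR, adjusted p = 0.502 and 0.265).

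Among the sensors, the genes did not share a direction. EIF2AK3 encodes PERK, the kinase that slows translation, and was the only member lower in 4 of 4 pairs. It had 126, 139, 106 and 105 CPM in control wells and 117, 119, 94.7 and 97.1 CPM in stretch wells. Its log2 change of -0.15 ± 0.04 in the paired fit did not pass (edgeR, adjusted p = 0.124), and it is singled out after its values were seen. ERN1, the gene of IRE1, had 53.8 to 67.0 CPM in control wells and 52.2 to 67.6 CPM in stretch wells. ATF6 had 119 to 143 CPM and 129 to 137 CPM. XBP1, whose mRNA IRE1 splices to make an active transcription factor, had 122 to 154 CPM in control wells and 134 to 163 CPM in stretch wells, with every pair higher by 0.069 to 0.126 on the log2 scale (paired edgeR fit, adjusted p = 0.456). Counts per gene do not separate spliced from unspliced XBP1.

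The cytosolic HSP90 genes differed between groups by less than the spread between wells. HSP90AA1, the stress-inducible form, had 1889, 1847, 1571 and 1535 CPM in control wells and 2026, 1800, 1564 and 1612 CPM in stretch wells. HSP90AB1, the constitutive form, averaged 2029 ± 79.2 and 2025 ± 90.6 CPM (SD, n = 4). Their folds in the paired fit were 1.02 (95% interval 0.974 to 1.07) and 0.998 (0.955 to 1.04). The co-chaperone genes STIP1, which links HSP70 to HSP90, and CHORDC1 had folds of 1.00 and 0.983.

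HSPA8, the constitutive cytosolic HSP70, had 1350 to 1967 CPM over the 8 wells. Its control wells averaged 1644 ± 286 CPM and its stretch wells 1636 ± 212 CPM (SD, n = 4), and 3 of 4 pairs were lower. HSPA8 was higher in wells 3 and 4 than in wells 1 and 2 of both groups. HSPA4 and HSPH1, of the HSP110 class that recharges HSP70, had folds of 0.997 and 0.968 in the paired fit. All 3 genes had 95% intervals between folds of 0.909 and 1.06. These families have related copies in the genome, and how multiply mapped reads were counted is not given in the sources used here. Counts of single HSP70 and HSP90 genes are therefore uncertain to that extent.

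**Figure D4:**
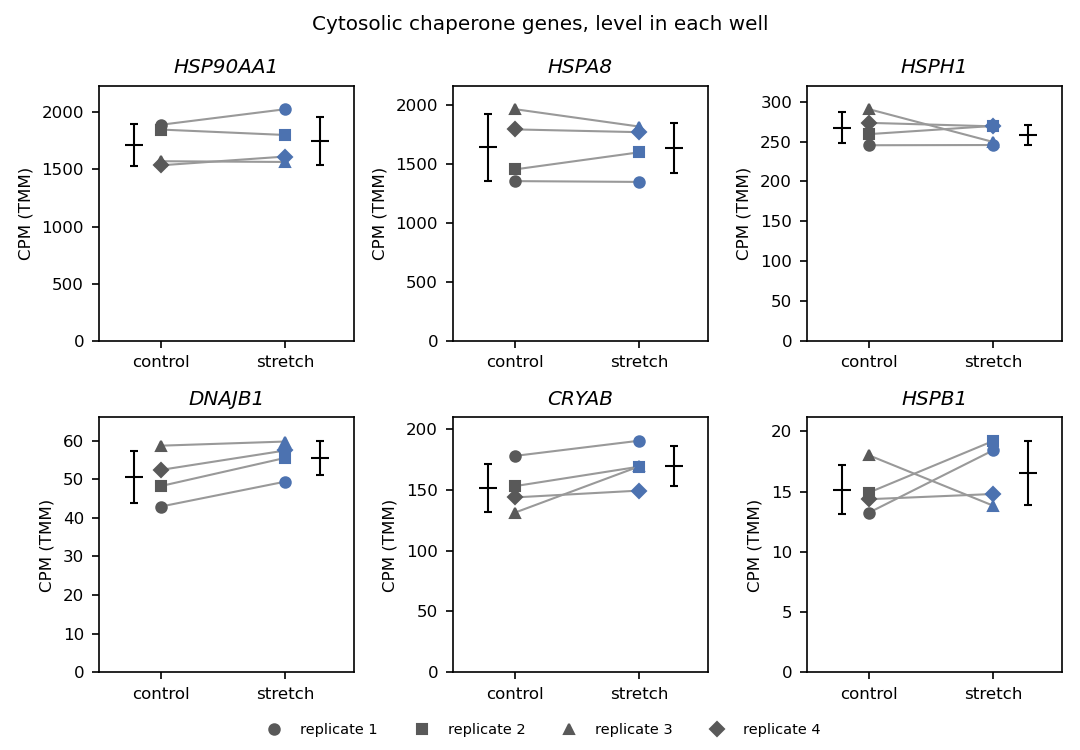
Level (TMM-scaled CPM, vertical axis from 0) of 6 cytosolic genes in each well, with grey lines joining same-numbered wells and black bars giving the mean and SD of 4 wells per group. Lines for HSP90AA1, HSPA8, HSPH1 and HSPB1 run in both directions, and those for DNAJB1 and CRYAB all climb, by 0.03 to 0.20 and by 0.055 to 0.367 log2 units.

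DNAJB1, DNAJA1, DNAJB4 and BAG3, the HSP40 genes and a nucleotide exchange factor of HSP70, had a median log2 change of -0.0057 in the unpaired fit. DNAJB1, on chromosome 20 (48520662 to 48531368, plus strand), is an HSP40 gene strongly induced by heat. It had 42.9, 48.2, 58.7 and 52.4 CPM in control wells and 49.4, 55.5, 59.7 and 57.4 CPM in stretch wells. All 4 pairs were higher, with a log2 change of 0.14 ± 0.05 in the paired fit (edgeR, adjusted p = 0.334; 0.999 without). DNAJA1 and DNAJB4, other HSP40 genes, and BAG3, which also couples HSP70 to autophagy, had log2 changes of 0.017, -0.035 and -0.035 in the paired fit. The DNAJA1 row of the table is a single interval of 1474 bases on chromosome 26, and DNAJB4 shares exonic positions with FUBP1, which had 818% of its counts.

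The small heat-shock proteins, which hold unfolded proteins without using ATP, had the highest cytosolic median, 0.13 in the unpaired fit over 3 genes. CRYAB, the gene of alpha-B crystallin on chromosome 5 (21215316 to 21218626, plus strand), had 178, 153, 131 and 144 CPM in control wells and 190, 169, 169 and 149 CPM in stretch wells. It was higher in every pair by 0.055 to 0.367 on the log2 scale, and did not pass (log2 change 0.17 ± 0.05 in the paired fit; edgeR, adjusted p = 0.168 with it and 0.999 without). Without pair 3 the log2 change of CRYAB in the paired fit was 0.098. HSPB1, the gene of HSP27 on chromosome 6 (7403114 to 7404545, plus strand), had 13.3, 14.9, 18.0 and 14.4 CPM in control wells and 18.4, 19.2, 13.8 and 14.8 CPM in stretch wells. It was higher by 0.47 and 0.36 in pairs 1 and 2, lower by a log2 difference of -0.38 in pair 3 and nearly level in pair 4 (paired edgeR fit, adjusted p = 0.89). The HSPB1 estimate in that fit was 0.125, and it was 0.010 without pair 1 and 0.292 without pair 3. HSPB8, a partner of BAG3, was higher in pairs 1 and 3 only, by 0.24 and 0.26, and had 21.9 to 33.6 CPM in control wells and 22.2 to 37.3 CPM in stretch wells.

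The mitochondrial chaperonin genes HSPD1 and HSPE1 averaged 827 ± 58.5 and 263 ± 12.0 CPM in control wells and 830 ± 70.8 and 265 ± 8.83 CPM in stretch wells (SD, n = 4). HSF1 had 37.4 to 40.1 CPM in control wells and 36.4 to 40.6 CPM in stretch wells, and HSF2 had 8.15 to 10.3 and 8.50 to 10.1 CPM. HSF2 shares exonic positions with SERINC1 on the opposite strand, and the strand setting of the counting is not known. SERINC1 held 2820% of the counts of HSF2 and had a log2 change of 0.0099 in the paired fit. In the paired fit, the 95% intervals of all 18 cytosolic genes lay within a 1.5-fold change in either direction, and HSPB1 had the widest (folds of 0.896 to 1.33). The intervals of 12018 of the 14571 tested genes and of 21 of the 23 ER genes lay within the same bound.

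Genes of similar level per length differed in their change. In control wells the cytosolic genes ranged from 2.96 CPM per kilobase (HSF2) to 702 (HSPA8), with a median of 72.8, and the ER genes from 7.72 (ERN1) to 1106 (HSP90B1), with a median of 77.3. Among the most abundant, HSPA5 at 670 ± 146 CPM per kilobase had a log2 change of 0.42, whereas PDIA3 at 739 ± 27.7 had one of 0.01. Summed over genes, the ER members took 1.62, 1.58, 1.37 and 1.31% of all counts in control wells and 1.71, 1.69, 1.57 and 1.4% in stretch wells. The cytosolic members took 0.761 to 0.788% and 0.762 to 0.813%.

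**Figure D5:**
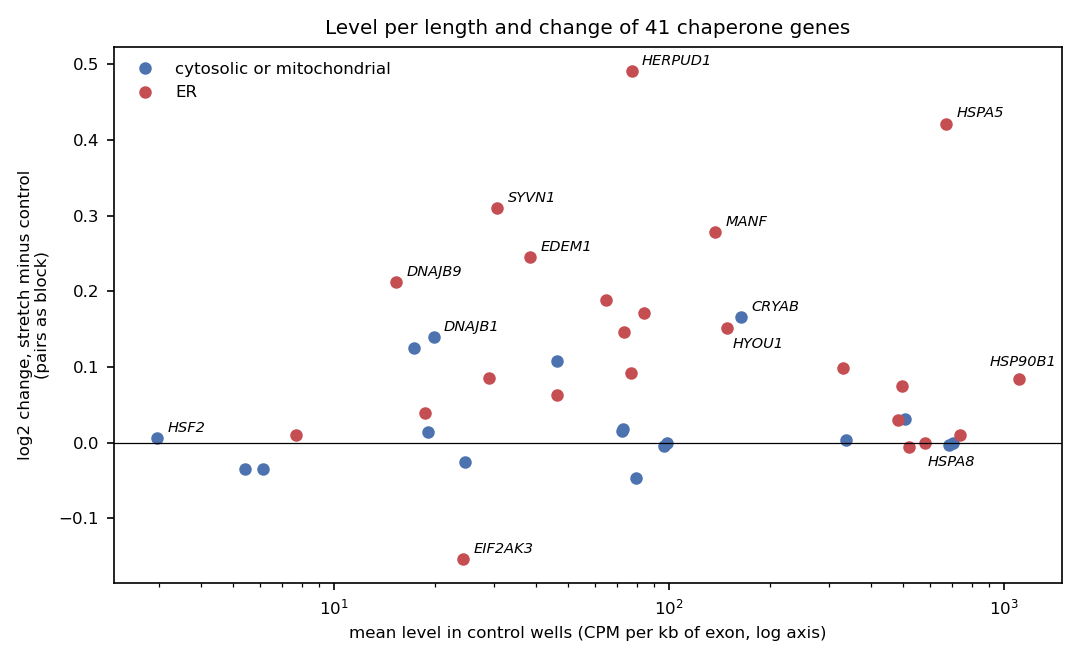
Mean level in control wells (CPM per kilobase of exon, log axis) against log2 change with pairs as a block (vertical axis) for the 41 genes, coloured by compartment. HERPUD1 and HSPA5 have the highest estimates at moderate and high levels, and EIF2AK3 the lowest. The cytosolic genes lie between -0.05 and 0.17, with CRYAB the highest of them.

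The wider pathways were read from 2 further lists. Of 50 tested genes listed as other cytosolic and mitochondrial chaperones and cofactors, 0 passed in either edgeR fit, and 0 had an unadjusted p under 0.05 in either. The list also holds SERPINH1 and HSPA13, whose proteins are ER chaperones, with log2 changes of 0.0015 and 0.049 in the paired fit. In 4 of 4 pairs, 2 (4%) were higher and 2 (4%) lower, against 8.45% and 7.84% of all tested genes. The median log2 change of the 50 genes in the unpaired fit was 0.0022. The row named HSP70, the heat-inducible gene of that family, had 65.6 to 85.0 CPM in control wells and 65.6 to 79.2 CPM in stretch wells, a log2 change of -0.04 in the paired fit, and is named after its values were seen.

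Of 56 tested genes of other ER folding, degradation and stress functions, 10 (17.9%) were higher and 5 (8.93%) lower in 4 of 4 pairs. The shares of all tested genes were 8.45% and 7.84%. The median log2 change of the 56 genes was 0.020 in the unpaired fit. CHAC1 alone passed in the paired fit. It encodes an enzyme that degrades glutathione and is induced by ATF4 and CHOP downstream of PERK, and lies on chromosome 30 (8370410 to 8372770, plus strand). Its control wells had 5.58, 5.50, 5.04 and 4.85 CPM and its stretch wells 6.83, 7.54, 8.95 and 7.38 CPM, so every stretch well lay above every control well. CHAC1 rose by 0.55 ± 0.12 in the paired fit (edgeR, adjusted p = 0.0451 in the paired fit and 0.409 without). DESeq2 without pairing gave an adjusted p of 0.0144, and its raw counts were 149 to 261 per well. Without any single pair the adjusted p of CHAC1 was 0.103 to 0.208 in the paired edgeR fit. In the same list, ATF4 and DDIT3, the gene of CHOP, had log2 changes of 0.022 and 0.175 in the paired fit. Those of PPP1R15A, TRIB3 and ASNS were 0.230, -0.079 and -0.061, and none of these genes passed. They are named after their values were seen, and activity of PERK was not tested.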

How the data were processed

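Strand-specific polyA libraries from 8 wells were sequenced, per the labels. The authors deposited raw counts per gene and well, with exon lengths, which served for levels per kilobase. The submitters' processing notes name FastQC 0.11.8, Trim Galore 0.6.5, STAR 2.7.3a and featureCounts. The strand setting, the counting of multiply mapped reads and the genome build are not given in the sources used here. Of 37952 genes, 37291 matched a symbol of the RefSeq table of UU_Cfam_GSD_1.0, all with identical start and end. Promoter and protein sequences were not used here.

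Counts were fitted in R 4.3.3 with edgeR 4.0.16 (robust quasi-likelihood, TMM, filterByExpr with a minimum count of 10 and total of 15), leaving 14571 genes. Two-sided p-values received a Benjamini-Hochberg adjustment over all genes, with 0.05 as the threshold. Pair differences are log2 CPM with a prior count of 2. The main model had a stretch term only. The paired fit added the replicate number, taken from the sample titles, as a block: same-numbered wells correlated in their deviations (each above 0.1, mean 0.199), though the labels do not say what equal numbers share, and exchanging numbers within 1-2 and 3-4 gave a mean of 0.180. Wells of a group differed by a chi-square per degree of freedom of 5.14 to 23.6, so none repeated another. Alternatives used DESeq2 1.42.0, limma 3.58.1, other scalings and filters, a block of 2 levels and left-out wells. Scripts were tested on simulated data. The members and lists were chosen with earlier results of these data known. Full statistics are given for members past the threshold in either fit, for the 3 members per compartment with the smallest p in the unpaired fit, and for genes of the other lists past the threshold. HSPA5, HERPUD1 and EIF2AK3 were added after their values were seen.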

Additional observations from a re-analysis of the deposited data

Results flagged for a closer look

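In 2 of the 82 groups of 4 wells examined (41 genes in control and stretch wells), a single well lay apart from the other 3 by the ratio of its gap to the whole range. By chance, about 4.1 such groups would be found at this level. For HSP90AB1, stretch replicate 1 had 2160 CPM against 1966 to 1998 CPM in the other stretch wells. For HSF1, stretch replicate 4 had 36.4 CPM against 40.1 to 40.6 CPM.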

How the results depend on the processing

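The calls depended on the model. Without the block, edgeR called 0 genes under the 3 other scalings or a floor of 10 counts in every well, and 11 with no filter on low counts. Limma-voom called 0 and DESeq2 40. Single wells left out gave 0 to 12 genes and 0 members. With the replicate block, 102 genes and 4 members passed, and it changed no other call among the genes named than those of MANF, EDEM1, HYOU1, SYVN1 and CHAC1. The 2-level block gave 58 genes and 0 members. With the replicate block, DESeq2 gave 145 genes and 5 members (HSPA5 added, adjusted p = 0.0197), limma-voom 100 and 4, and no filter on low counts 448 and 11. The 11 include HSPA5, HERPUD1 and the cytosolic gene CRYAB (edgeR without the filter, adjusted p = 2.3e-52, 2.1e-26 and 0.0107). With the filter these were 0.265, 0.470 and 0.168, so the p-values of the unfiltered fit depended strongly on the filter. Among settings chosen after seeing the data, all with the replicate block, DESeq2 size factors gave 105 genes and 4 members, upper-quartile factors 112 and 3, and library size only 111 and 3. Leaving out pairs 1 to 4 in turn gave 43, 67, 186 and 74 genes, and 1 to 5 members.

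The ER median ranged from 0.036 without control replicate 4 to 0.154 without control replicate 1 (0.154 also without stretch replicate 4, 0.132 without control replicate 2). It was 0.088 to 0.117 with the block and a pair left out. The cytosolic median ranged from -0.021 without stretch replicate 1 to 0.041 without stretch replicate 4. The cytosolic minus ER median stayed negative in all 27 alternatives, from -0.132 to -0.046. Over these 27 alternatives, 18 of 23 ER and 3 of 18 cytosolic genes kept the sign of their change. The median log2 change of all genes was -0.0030 to 0.0028 over the alternatives, against -0.0032 in the main fit. Depth limits the least abundant members most: HSF2 had 245 to 319 counts per well.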
